A study of Homo sapiens with 16 samples.

Results

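The region described here is a stretch of the short arm of chromosome 19 that carries PRDX2, KLF1, CALR, NFIX and LYL1, followed in a Hi-C digestion series of K562 cells. Its members are the 9 bins of 20 kb that these 5 genes touch, of 154795 such bins in the whole genome map, together with their contacts inside a window of 110 bins that spans bases 12000001 to 14200000 of the chromosome. The region was picked because the 100 kb from 13.1 Mb had one of the largest gains in contacts between the shortest and the longest digestion, so that gain is given below as a description and supports nothing.

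K562 is an established leukaemia line with an erythroid character. The cells were fixed with formaldehyde, and HindIII, a restriction enzyme that cuts at AAGCTT, was left to act inside the nuclei for 0.25, 1, 3 or 12 h before the ends were marked with biotin and ligated. Each digestion time had 2 replicates, and every library was sequenced in 2 runs, the second of which is used here at 20 kb. No gene was deleted and no agent other than the enzyme was varied, and the series set out to find which domain borders open at short digestion. The labels do not say whether replicates came from separate cultures, so p-values measure only the spread between these 8 libraries.

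Hi-C counts how often 2 places in the genome are joined, and a bin gains contacts when its DNA is cut and ligated more often. Genes that lie within one folded domain meet each other more often than their distance alone would give. KLF1 is the erythroid Krüppel-like factor, which binds CACCC boxes and activates adult globin and many other red cell genes. LYL1 is a basic helix-loop-helix factor related to TAL1 and active in early blood cells. NFIX belongs to the nuclear factor I family and takes part in the control of blood stem cells and fetal muscle. PRDX2 is a peroxidase that is abundant in red cells, and CALR encodes calreticulin, a calcium-binding chaperone of the endoplasmic reticulum.

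The positions below are in hg19, whose chromosome lengths match the bin numbering of the files. PRDX2 lies near 12.908 Mb, KLF1 from 12.995 to 12.998 Mb, CALR near 13.049 Mb, NFIX from 13.107 to 13.21 Mb and LYL1 from 13.21 to 13.214 Mb. RefSeq on GRCh38.p14 places 23 annotated genes from PRDX2 to LYL1, 16 of them protein coding. Between PRDX2 and KLF1 these include RNASEH2A, MAST1 and DNASE2, and between KLF1 and CALR they include GCDH, SYCE2 and FARSA.

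The promoters of KLF1 and CALR are shown because these genes are the ends of the strongest contact between different members. Each runs from 250 bases before to 50 after the RefSeq start site on GRCh38.p14, at chr19:12887152-12887451 on the minus strand for KLF1 and chr19:12938359-12938658 on the plus strand for CALR. Capitals mark matches to the GATA-family motifs (AGATAA or TGATAA or AGATAG or TGATAG) and to the CCAAT box (GCCAAT), on either strand.
KLF1: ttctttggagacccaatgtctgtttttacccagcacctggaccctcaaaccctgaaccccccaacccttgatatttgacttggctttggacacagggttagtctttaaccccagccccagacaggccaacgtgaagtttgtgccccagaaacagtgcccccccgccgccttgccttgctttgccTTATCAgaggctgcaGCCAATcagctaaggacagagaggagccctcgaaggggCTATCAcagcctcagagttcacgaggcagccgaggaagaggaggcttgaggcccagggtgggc
CALR: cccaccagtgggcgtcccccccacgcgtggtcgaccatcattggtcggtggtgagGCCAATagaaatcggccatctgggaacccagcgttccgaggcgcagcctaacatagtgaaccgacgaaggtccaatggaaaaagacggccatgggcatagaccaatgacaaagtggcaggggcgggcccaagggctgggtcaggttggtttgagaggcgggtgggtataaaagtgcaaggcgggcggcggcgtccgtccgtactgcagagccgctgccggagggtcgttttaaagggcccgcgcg

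The KLF1 promoter held 2 GATA-family matches, starting 66 and 13 bases before the start site, and 1 match to GCCAAT. The CALR promoter held no GATA-family match and 1 match to GCCAAT. Both sequences also hold the shorter CCAAT after another letter, which was not counted. Among all 35116 RefSeq promoters, 24.97% held a GATA-family match and 14.8% a match to GCCAAT. The KLF-family motif CCNCNCCC, present in 56.2% of promoters, was absent from both sequences and was found in the promoters of PRDX2 (2 matches), LYL1 (4 matches) and 4 of the 5 RefSeq promoters of NFIX. LYL1 also held 2 GATA-family matches. The E-boxes (CAGCTG or CAGATG, in 29.8% of promoters) had 1 match in the CALR promoter and the NFI-family motif, in 0.0285% of promoters, had none in the 9 entries. The HindIII site (AAGCTT) was in 5.84% of all promoters and in none of the 9 promoter entries of the 5 genes. GC content was 62.7% for CALR, 73.7% for PRDX2, 74.7% for LYL1 and 54.3% to 74.0% for the NFIX entries, around a median of 58.7% over all promoters, and KLF1 was below that median. A match describes letters in a 300-base window and says nothing about binding. These windows are far smaller than a 20 kb bin, and the number of HindIII sites per bin was not counted because no hg19 sequence was used here.

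Of the 9 member bins, 8 were present in all 8 files. The bin from 13.20 to 13.22 Mb, which holds LYL1 and the end of NFIX, was present in none of them, and the 50 kb bin from 13.2 to 13.25 Mb of the first run was present in none of its 8 files. LYL1 therefore has no measured contacts, and NFIX is described by 5 of its 6 bins, numbered 1 to 5 from 13.10 Mb upwards. Gaps were common here: 21 of the 110 bins of the window were missing from at least 1 file (19.1%), against 18.97% of chromosome 19 and 9.63% of chromosomes 1 to 22 and X.

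The second run held between 62777251 and 176412222 contacts per library, and the 12 h libraries held the most. In all 8 libraries the bin pair of 1 Mb with most contacts between chromosomes 9 and 22 was the one at 133 to 134 Mb of chromosome 9 and 23 to 24 Mb of chromosome 22, with 5194 to 26287 contacts, the place of the fusion that K562 is known for. Contacts of a bin were counted with all other bins, self contacts left out, and given as CPM (with 0.5 added, per 1000000 contacts between different bins of the library), after the deposited balanced signal had been turned back into whole contacts. Because amplified reads carry no molecular identifiers, the Poisson intervals below cover counting error only.

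KLF1, CALR and NFIX were thinly covered bins whose levels were lowest or nearly so at the shortest digestion and highest at 12 h, with the largest step between 3 and 12 h. The median of the 8 member bins was 260 contacts per library, against 538 over the bins of chromosome 19 and 1301 over all bins. By mean contacts, CALR and NFIX bins 1 and 2 lay at the 1.52, 1.55 and 1.47 percentiles of all bins, KLF1 at the 2.109 percentile and NFIX bin 3, the deepest, at the 13.9 percentile. Thin bins as a class gained: the median log2 gain of bins in the same depth class out of 20 was 0.37 for KLF1 and CALR and 0.23 for NFIX bin 3. The part of depth in the gains of the members was not tested.

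In order of digestion time, the KLF1 bin held 152, 171, 228 and 431 contacts in the first replicates and 76, 107, 172 and 434 in the second. The mean levels, in the same order, were 1.64 ± 0.047, 1.72 ± 0.040, 1.92 ± 0.0091 and 2.98 ± 0.30 CPM (SD, n = 2). Both 12 h libraries were above the other 6, and the first 3 times lay close together.

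CALR held 117, 168, 191 and 408 contacts in the first replicates, from 0.25 to 12 h, and 55, 131, 138 and 371 in the second. Its mean levels were 1.23 ± 0.088, 1.89 ± 0.25, 1.58 ± 0.040 and 2.68 ± 0.080 CPM (SD, n = 2). Here the 1 h libraries lay above those of 3 h, and the 12 h libraries above all others.

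PRDX2, at the lower edge of the region, held 325, 351, 503 and 811 contacts in the first replicates and 146, 255, 374 and 751 in the second. Its mean levels were 3.33 ± 0.35, 3.79 ± 0.31, 4.21 ± 0.024 and 5.37 ± 0.23 CPM (SD, n = 2). The replicates of 0.25 and 1 h met at about 3.58 CPM, and those of 3 h lay above both.

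The NFIX gene is longer than a bin, so its own bins could be compared. Bins 1 and 2, over the 5′ part of the gene, were shallow, with 60 to 441 and 59 to 440 contacts per library. Bin 3 was the deepest of the region, with 364 and 193 contacts at 0.25 h and 1160 and 1122 at 12 h. Bins 4 and 5 held 136 to 791 and 91 to 645 contacts. Despite this spread in depth, the 5 bins gained by similar amounts, with log2 differences of 12 h minus 0.25 h between 0.84 and 1.02.

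**Figure D1:**
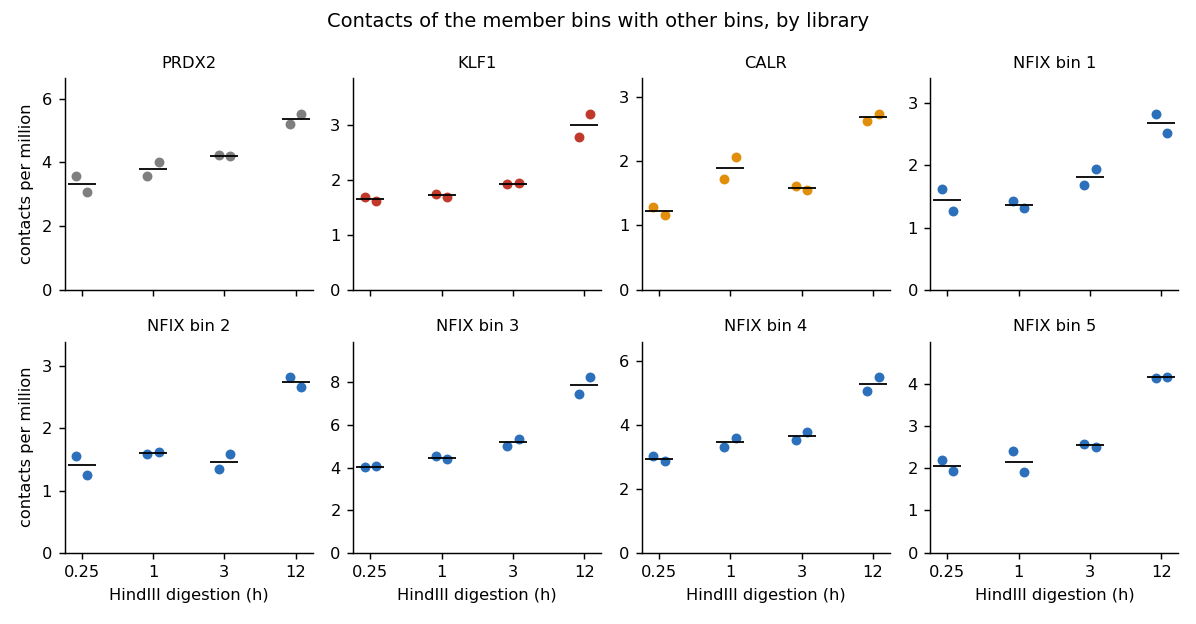
Contacts in CPM (vertical axis, from 0 in each panel) of the 8 member bins against HindIII digestion time in hours, with a point for each of the 8 libraries and a bar at the mean of the 2 replicates. In all 8 panels both 12 h libraries lie above the other 6; CALR is higher at 1 h than at 3 h.

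The log2 difference of 12 h minus 0.25 h was 1.13 ± 0.12 for CALR, 0.86 ± 0.11 for KLF1 and 0.69 ± 0.088 for PRDX2 (± SE of the limma fit). As folds these were 2.18, 1.81 and 1.62. From contacts between chromosomes alone, the log2 difference was 0.71 for CALR, 0.16 for KLF1, 0.18 for PRDX2 and 0.42 to 0.61 for the NFIX bins. All 8 member bins were higher in both 12 h libraries than in the other 6, a pattern that 36.9% of all bins showed, and 34.9% of all bins were called higher at 12 h by limma at an adjusted p under 0.05. The members were chosen by this gain, so no test of it is given for them. Their median of 0.93 stood beside 0.59 for the window, 0.45 for chromosome 19 and 0.05 for all bins.

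Within the window of 89 bins present in all files, CALR had the highest gain. NFIX bins 5 and 2 ranked 3rd and 4th, bins 3 and 1 ranked 7th and 11th, KLF1 13th and PRDX2 33rd. Against chromosome 19 alone, CALR stood at the 99.3 percentile, KLF1 at the 93.0 and PRDX2 at the 80.9. At 100 kb, the bin from 13.1 Mb that the choice rests on held 829 and 423 contacts at 0.25 h and 2497 and 2272 at 12 h, a log2 gain of 0.83 ± 0.058 that ranked 34th of 27786 bins. The 100 kb just below it, with the CALR bin, gained 0.75 ± 0.095 (rank 85), and the 100 kb from 13.3 Mb gained 0.81 ± 0.068 (rank 48). In the first run, which is a shallower sequencing of these libraries and no separate sample, the bin from 13.1 Mb held 77 and 49 contacts at 0.25 h and 263 and 250 at 12 h, and gained 0.93 ± 0.15 (rank 88 of 27938).

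**Figure D2:**
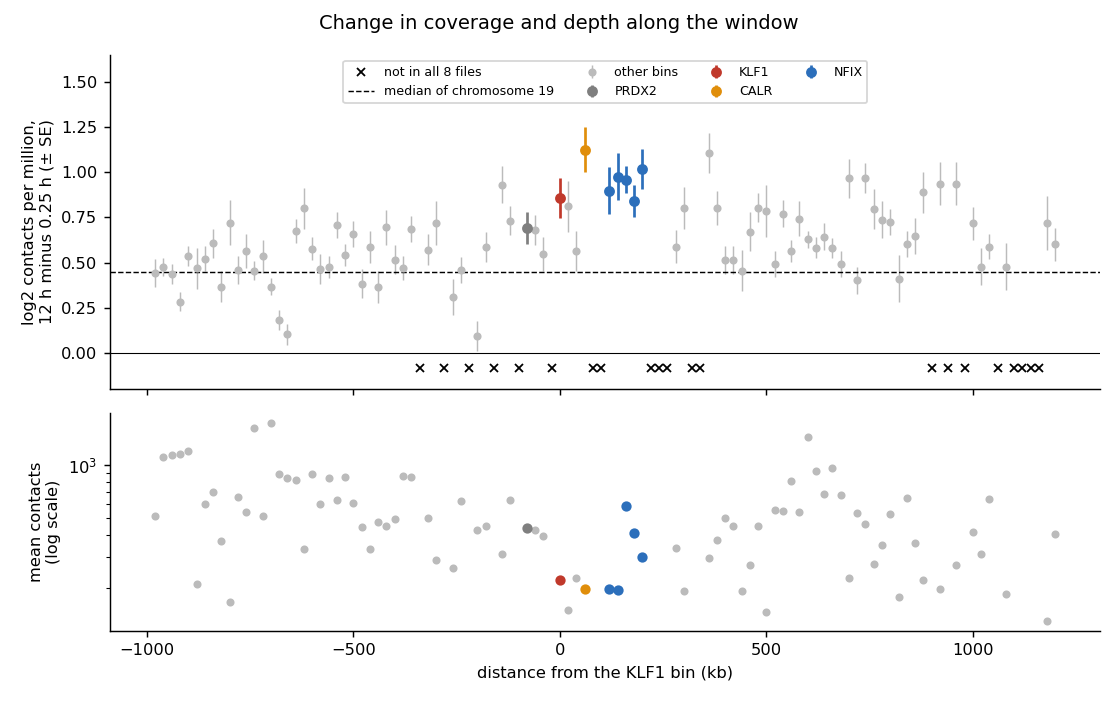
Log2 difference in CPM, 12 h minus 0.25 h, with its SE (upper panel) and mean contacts per library on a log axis (lower panel) for the 20 kb bins of the window, against distance from the KLF1 bin in kb. The members lie above the chromosome 19 median of 0.45 (dashed line), among neighbours that also gained; crosses mark the 21 bins missing from at least 1 file.

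At the times that the choice did not use, 3 h and 1 h, no difference at the members passed the test. The log2 difference of 3 h minus 1 h was 0.41 ± 0.13 for NFIX bin 1 (unadjusted p = 0.0047) and 0.21 ± 0.075 for NFIX bin 3 (unadjusted p = 0.0093). It was -0.25 ± 0.12 for CALR (unadjusted p = 0.048), 0.16 ± 0.11 for KLF1 and 0.15 ± 0.088 for PRDX2. NFIX bins 5, 4 and 2 were at 0.25 ± 0.11 (unadjusted p = 0.035), 0.08 ± 0.087 and -0.14 ± 0.13. After Benjamini-Hochberg adjustment over 137198 bins the limma adjusted p of the 8 bins lay between 0.84 and 0.91, so none was called. The background was the same: 0 bins, or 0% of those tested, passed, although 8043 had an unadjusted limma p under 0.05.

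Likeness to the mean of the NFIX bins was taken from log2 coverage over the 8 libraries, each bin centred on its own mean. It compares the course over the libraries and not the level. The 3 most alike bins of chromosome 19 outside the window lay at 48.96, 4.76 and 56.60 Mb. They differed from the NFIX mean by a root mean square of 0.043, 0.046 and 0.048 on the log2 scale, among 2307 bins compared. The nearest held 232 and 113 contacts at 0.25 h and 715 and 641 at 12 h. All 3 were thin bins like the members. Their gains were 0.92, 0.98 and 1.03, near those of NFIX because of how the bins were chosen.

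The members had a smaller share of their contacts with other chromosomes at 12 h than at 0.25 h. The share of KLF1 contacts that were with other chromosomes was 35.4% ± 0.46, 31.9% ± 0.72, 29.8% ± 5.8 and 23.7% ± 0.20 in order of digestion time (SD, n = 2). Its share with other bins of the window went from 32.1% ± 0.46 to 51.4% ± 1.7. For NFIX the share with other chromosomes was 27.8% ± 0.42 at 0.25 h and 23.5% ± 0.019 at 12 h, for CALR 32.4% ± 7.3 and 26.1% ± 2.5, and for PRDX2 24.3% ± 5.1 and 18.2% ± 0.76. The PRDX2 libraries were at 20.7% and 27.9% at 0.25 h and 17.7% and 18.8% at 12 h, and those of CALR at 37.6% and 27.3% against 27.9% and 24.4%, which overlap. Over all bins of chromosome 19 this share was 18.4% and 18.7% in the replicates at 12 h and 15.9% and 16.1% at 0.25 h. That difference depends on counting contacts of a bin with itself: without them it was 20.1% and 20.4% at 12 h and 19.2% and 20.6% at 0.25 h, which overlap, while KLF1 was at 23.9% and 23.96%, against 36.2% and 35.5%. The window as a whole was at 18.7% and 19.1% at 12 h without self contacts, below its 20.5% and 23.1% at 0.25 h. These shares belong to the contrast that chose the region, so they are given without a test.

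**Figure D3:**
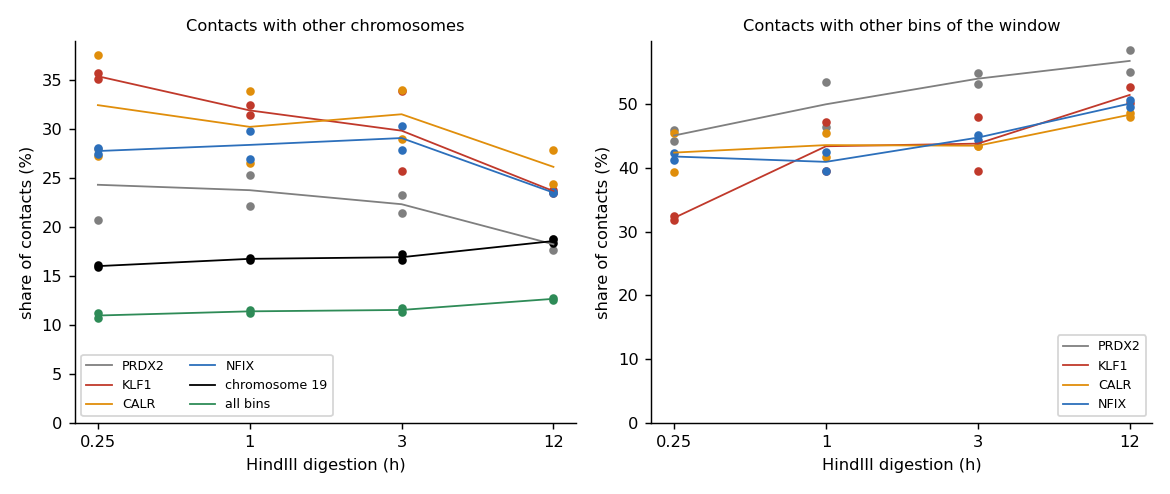
Share of contacts (percent, from 0) with other chromosomes (left) and with other bins of the window (right) against digestion time in hours; points are libraries and lines join the means of the 2 replicates. The members end lower at 12 h than at 0.25 h on the left, KLF1 from 35.4% to 23.7%, with self contacts counted in the total; without them the values of chromosome 19 at 0.25 and 12 h overlap.

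The genes met each other unevenly: KLF1 met CALR more than their distance gives, the NFIX bins met one another, and PRDX2, KLF1 and CALR met the 5 NFIX bins, added together, at a rate whose interval includes that of other chromosome 19 bins. Expected contacts were taken from the mean balanced signal at each distance in each library, over all chromosomes or over chromosome 19 alone, and scaled back by the bins' own factors. Chromosome 19 bins meet each other more than the average at a given distance, by 1.305 times at 60 kb and 1.34 times at 100 kb, so both ratios are given. The ratios rest on the balancing: with recovered, unbalanced contacts set against the mean of all bins, the log2 preference of KLF1 with CALR was -2.39 and that of NFIX bins 1 and 5 was -1.57.

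KLF1 and CALR, 60 kb apart, shared 2, 3, 5 and 18 contacts in the first replicates and 0, 6, 5 and 13 in the second. The total of 52 compares with 15.1 expected from all chromosomes, a ratio of 3.45 (95% exact Poisson interval 2.58 to 4.52), and with 19.6 expected from chromosome 19, a ratio of 2.65 (1.98 to 3.47). The ratio from all chromosomes was above 1 in 7 of 8 libraries, the exception being the library with 0 contacts. In order of digestion time it was 1.52 (0.185 to 5.51), 4.20 (1.92 to 7.97), 3.73 (1.79 to 6.85) and 3.47 (2.36 to 4.93), and the intervals overlap. Bins between the genes had ratios from all chromosomes whose intervals overlap that of the pair. KLF1 shared 75 contacts with the bin starting at base 13020001 (2.65, 2.09 to 3.33), and CALR shared 45 with that at 13000001 (2.75, 2.00 to 3.67). With the bin next to each gene the ratio was lower, at 0.791 for KLF1 and 1.38 for CALR. Among pairs kept by their expected contacts, the mean log2 preference was 1.21 ± 0.22 (SE; limma adjusted p = 0.0078), at the 98.2 percentile of chromosome 19 pairs of the same distance.

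The 5 NFIX bins shared 674 contacts over their 6 pairs 40 kb or more apart. These were 51, 55, 85 and 168 in the first replicates and 25, 35, 79 and 176 in the second. The ratio to the expectation was 2.48 (2.298 to 2.68) from all chromosomes and 1.96 (1.81 to 2.112) from chromosome 19, and it was above 1 under both in 8 of 8 libraries. In order of digestion time the ratio from all chromosomes was 2.57 (2.02 to 3.21), 2.58 (2.07 to 3.17), 2.77 (2.36 to 3.23) and 2.33 (2.09 to 2.59), with intervals that overlap. The outermost measured bins had the highest ratio of these pairs. Bins 1 and 5, 80 kb apart, shared 7, 3, 9 and 21 contacts in the first replicates and 1, 2, 6 and 17 in the second, in all 66 against 15.5 expected from all chromosomes (ratio 4.27, 3.30 to 5.43) and a ratio of 3.18 (2.46 to 4.05) against chromosome 19. Bins 1 and 4 shared 103 contacts, a ratio of 3.60, or 2.76 against chromosome 19.

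Relative to the expectation, the NFIX bins met the flank bins that were present less than one another. The bins next to NFIX, from 13.06 to 13.10 Mb and from 13.20 to 13.26 Mb, were not in all files and are left out. The part of these gaps in the ratios, for the flanks and within NFIX, was not tested. With the 400 kb on the lower side of NFIX, which includes CALR, KLF1 and PRDX2, its bins shared 967 contacts, 0.859 times the chromosome 19 expectation (0.805 to 0.915). With the 400 kb on the higher side they shared 935 contacts, 0.720 times (0.675 to 0.768). Against the expectation of all chromosomes these ratios were 1.09 and 0.901, so whether the lower side is above or below its expectation turned with that choice. CALR, by contrast, had 1.57 times (1.40 to 1.76) the chromosome 19 expectation on its lower side, towards KLF1, and 1.12 times (0.954 to 1.295) on its higher side, towards NFIX. At 0.25 h the order was the other way, with 1.19 and 0.788 on the lower and 1.83 and 2.06 on the higher side in the replicates.

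For the other pairs of genes the interval of the ratio included the chromosome 19 rate. KLF1 shared 90 contacts with the 5 NFIX bins, a ratio of 1.54 (1.23 to 1.89) from all chromosomes and 1.16 (0.934 to 1.43) from chromosome 19. Of these, 44 came from replicate 1 at 12 h and 15 from replicate 2, so the replicates differ widely and the ratio from all chromosomes was above 1 in 5 of 8 libraries. CALR shared 112 contacts with NFIX, ratios of 1.47 and 1.11, which add bins that differ: it was 1.27 (0.937 to 1.69) times the chromosome 19 expectation for bin 3 and 0.521 for bin 1. PRDX2 shared 40 contacts with KLF1 (1.59 and 1.18), 25 with CALR (1.79 and 1.35) and 86 with NFIX (1.07 and 0.832). With NFIX bin 1, the 5′ end of the gene, CALR shared 9 contacts (0.521 times the chromosome 19 expectation, 0.238 to 0.989) and PRDX2 shared 8 (0.571, 0.246 to 1.12), while KLF1 shared 12 (1.06, 0.550 to 1.86).

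**Figure D4:**
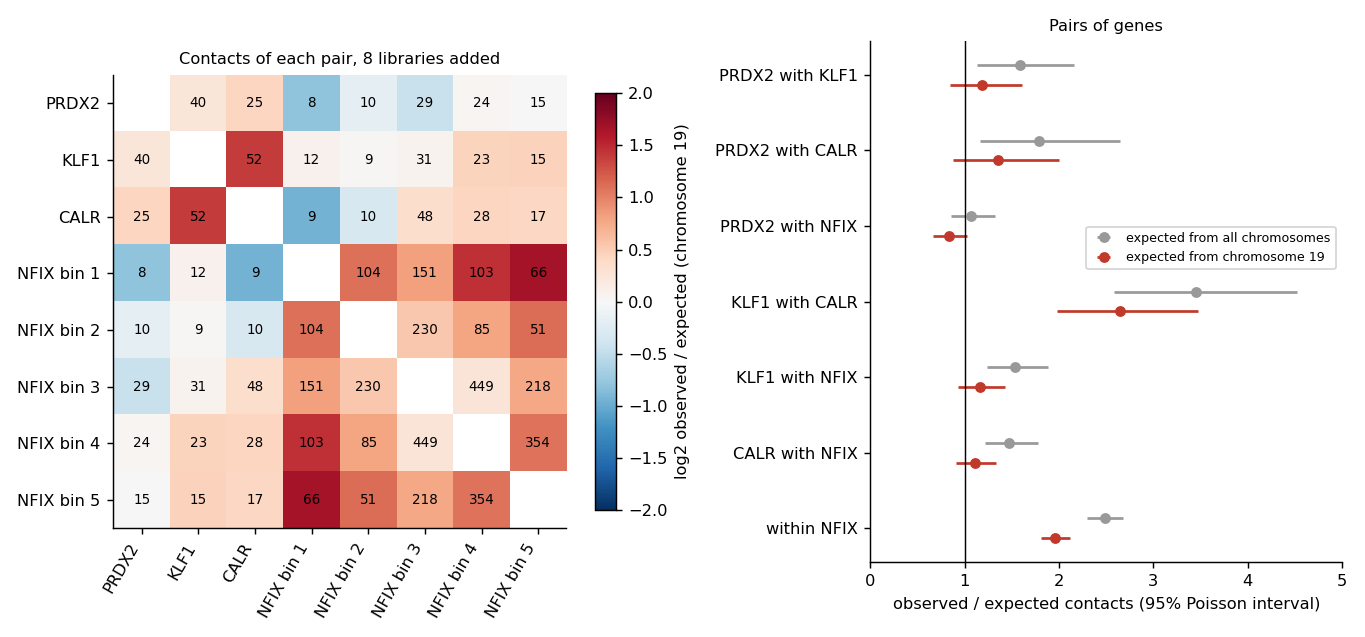
Left, contacts of each pair of member bins, added over the 8 libraries (numbers), coloured by log2 of observed over expected contacts with the expectation of chromosome 19. Right, observed over expected contacts for each pair of genes with 95% exact Poisson intervals, under both expectations; KLF1 with CALR (2.65) and the pairs within NFIX (1.96) lie above 1 under both.

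Of the 28 pairs of the 8 bins, 24 were 40 kb or more apart, and 23 of these had at least 1 expected contact on average. By limma on these pairs, 9 of the 23 were above the expectation of all chromosomes at an adjusted p under 0.05 and 0 were below. The background of calls above was 8.1% of 5687371 pairs, and 13.2% of the 63170 chromosome 19 pairs among them. Calls below were more common in that background, at 1075362 of the 5687371 pairs. Those pairs were up to 1 Mb apart, the member pairs at most 280 kb. The 9 comprised all 6 pairs within NFIX and 3 of the 17 between genes, namely KLF1 with CALR, PRDX2 with CALR, and CALR with NFIX bin 3. The count between genes is near the chromosome 19 share, so nothing is drawn from it. PRDX2 with CALR was at the 85.2 percentile of chromosome 19 pairs of the same distance, and CALR with NFIX bin 3 at the 81.8. Their ratios to the chromosome 19 expectation had intervals that include 1 (0.875 to 2.00 and 0.937 to 1.69). The median log2 preference of the 23 was 0.39, against -0.26 for all pairs and -0.09 for the chromosome 19 pairs. The other filter, a mean of at least 5 observed contacts, kept 9 pairs, some of which could pass only because they are high, so nothing is drawn from their calls; its background was 23.9% of 2364888 pairs.

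The strongest partners of each member at 60 kb or more are given as values only, since they were picked for their height and only among pairs with a mean of at least 5 contacts. That filter kept 4 of 80 pairs for KLF1, 3 of 81 for CALR, 5 of 78 for PRDX2 and 9 of 384 for NFIX. For NFIX the pairs were counted from each of its bins, so a pair within the gene counts from both ends. The different NFIX pairs kept were 6. PRDX2 met the bin from 12.78 Mb most, with 11, 16, 12 and 19 contacts in the first replicates and 2, 9, 15 and 14 in the second. That is 98 against 30.9 expected from all chromosomes, or 2.35 times the chromosome 19 expectation. CALR met the bin from 12.94 Mb, between PRDX2 and KLF1, with 44 contacts in all, 2.07 times that expectation. After CALR, the strongest partners of KLF1 among these were PRDX2, as above, and the bin from 12.86 Mb, with 51 contacts (1.33 times, 0.987 to 1.74). For PRDX2, the next was the bin from 12.84 Mb, with 71 contacts (1.35 times). CALR with NFIX bin 3 shared 48 contacts (1.27 times, 0.937 to 1.69). Some pairs that the filter left out were comparably high. Against the expectation of all chromosomes, KLF1 with the bin from 13.26 Mb shared 23 contacts (3.31 times, 2.10 to 4.96), between its 3.45 with CALR and 1.59 with PRDX2. CALR with the bin from 12.78 Mb shared 17 (2.31 times, 1.35 to 3.70), between its 2.76 with 12.94 Mb and 1.70 with NFIX bin 3. The 5 NFIX bins, added together, had their highest ratio to a bin outside the gene with the one starting at base 13860001 (23 contacts, 1.70 times, 1.08 to 2.55). All 3 were picked after their values were seen. The 3 strongest of the kept NFIX pairs lay within the gene: bins 1 and 5, bins 1 and 4, and bins 2 and 5, the last with 51 contacts (2.16 times). Between 3 h and 1 h no pair was called by limma in either direction, 0% of those tested, with 119760 of 2364888 at an unadjusted p under 0.05; the log2 difference for KLF1 with CALR was -0.09 ± 0.56.

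The outermost measured bins of NFIX leaned towards each other; the last stretch of the gene lies in the absent bin. Direction preference is log2 of the signal with the 200 kb on the higher side over that with the 200 kb on the lower side, each relative to what the bins present there would give. NFIX bin 1 was at 0.91, 2.04, 1.08 and 1.04 in the first replicates and 3.43, 1.153, 2.58 and 1.57 in the second. All 8 values were positive, that is, towards the gene body, with a mean of 1.72 ± 0.28 (SE; limma adjusted p = 0.00073), and its size was at the 99.6 percentile of all bins. The highest, 3.43 at 0.25 h replicate 2, came from a library in which bin 1 shared 0 contacts with PRDX2, KLF1 and CALR. Without that library the mean was 1.41. Bin 5 was at -0.56, -1.06, -0.16 and -1.01 in the first replicates and -1.25, -1.15, -2.06 and -1.46 in the second. All 8 were negative, towards the measured gene body, with a mean of -1.09 ± 0.19 (limma adjusted p = 0.00099). Of the 10 bins on each side, 7 lower and 6 higher ones were present for bin 1, and 8 and 5 for bin 5. The nearest outer bins were not in all files. They start at bases 13060001 and 13080001 below bin 1, and at 13200001, 13220001 and 13240001 above bin 5. The part of the missing bins was not tested. Both leans include contacts between NFIX bins, which are also counted in the ratios above, so they are no separate result.

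CALR leaned to the lower side, towards KLF1, with a mean of -0.57 ± 0.14 (limma adjusted p = 0.0053), although both 0.25 h libraries were positive, at 0.56 and 0.17. Of the 10 bins on each side of CALR, 8 lower and 5 higher ones were present. The nearest higher bins, starting at bases 13060001 and 13080001, were in none of the files, and the part of these gaps was not tested. NFIX bin 3 had a mean of -0.22 ± 0.069 (limma adjusted p = 0.021), a call lost without 0.25 h replicate 2, 1 h replicate 1, 3 h replicate 1 or 12 h replicate 2 (adjusted p of 0.060 to 0.073). KLF1 (-0.20 ± 0.14), PRDX2 (-0.30 ± 0.15) and NFIX bins 2 (0.17 ± 0.14) and 4 (-0.11 ± 0.15) were not called. PRDX2 was called without 0.25 h replicate 1 (-0.48, limma adjusted p = 0.0021) and KLF1 without 1 h replicate 1 (-0.36, limma adjusted p = 0.019). A direction is the rule rather than the exception on this measure, since 74.2% of 136762 bins were called.

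**Figure D5:**
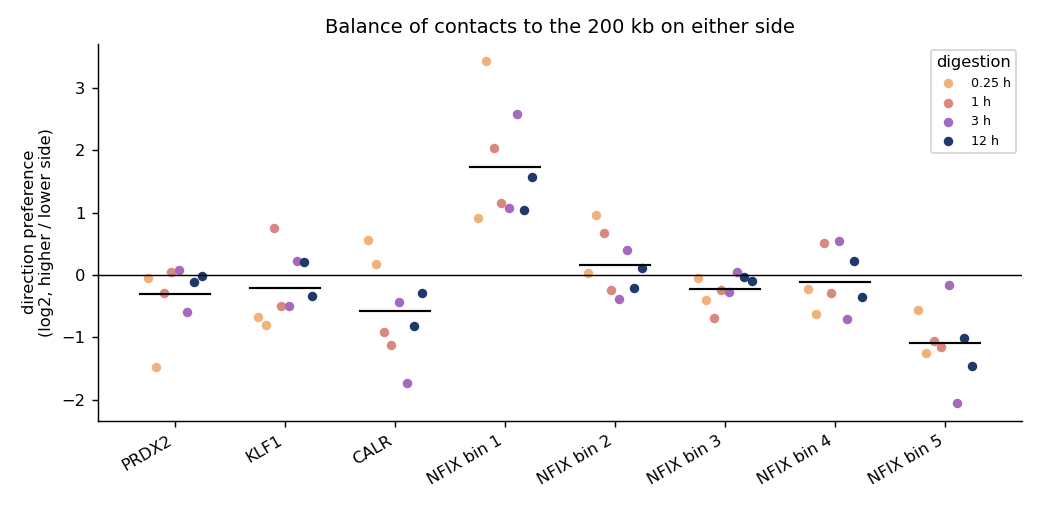
Direction preference (log2 of the higher over the lower side, vertical axis) of the 8 member bins; points are the 8 libraries, coloured by digestion time, and bars are the means. All points of NFIX bin 1 lie above 0 and all points of NFIX bin 5 below it, while KLF1 lies between -0.80 and 0.76 and PRDX2 between -1.48 and 0.07.

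Insulation, the log2 mean signal across a bin between the 200 kb on its sides relative to the chromosome, is low at a domain border. It needs most of that square to be present, and no member bin met the set share of 80%; squares at the members were 35% to 56% present. At 40%, a limit set after seeing this, 97 of the 110 window bins had a score. They include 5 of the 8 member bins present and the absent LYL1 bin (-0.24), whose square is made of its neighbours. KLF1 was at -0.03 ± 0.062, CALR at -0.09 ± 0.043, PRDX2 at 0.30 ± 0.051, NFIX bin 1 at 0.02 ± 0.036 and NFIX bin 5 at -0.29 ± 0.074 (mean over times ± SE), and bin 5 was at the 19.3 percentile of all bins. The score is a plain mean over the pairs present, whatever their distance. Next to NFIX bin 5 and the bin from 13.26 Mb, the bins from 13.20 to 13.26 Mb were not in all files. Both scores therefore rest on other distances than those of bins with full squares. The score dipped at 8 places in the window by a prominence of 0.2 or more. The nearest to the members were the KLF1 bin itself, with a prominence of 0.34, the bin from 12.94 Mb (0.23), the bin from 12.78 Mb (-0.41, prominence 0.89) and the bin from 13.26 Mb beyond LYL1 (-0.53, prominence 1.11). KLF1's score ranged from -0.59 to 0.55 among libraries, wider than the depth of its minimum. That was also so for the bin from 12.94 Mb, which ranged from -0.13 to 0.42. The bins from 12.78 and 13.26 Mb ranged from -0.83 to 0.008 and from -0.98 to -0.16, with 49% and 40% of their squares present. The other 4 minima were at 12.26, 13.70, 13.86 and 13.98 Mb.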

How the data were processed

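Each deposited file lists pairs of bins with a balanced contact signal; per the submitters' processing notes the tools were HiC-Pro 2.11.1 and Bowtie2 2.3.4.1 and the build hg19. The deposited signal of a bin summed to the same total in every bin to within 0.0097%, and the filter that removes bins is not given in the sources used here. Signals were turned back into whole contacts, since 77.2% to 78.3% of listed pairs of the second run hold 1 contact; 100% of values came within 1% of a whole number. Contacts were the base of coverage, and the signal that of pair preference, insulation and direction. Values on the log2 scale were tested with limma 3.58.1 in R 4.3.3 (lmFit and eBayes with trend, group means of the 4 times), with Benjamini-Hochberg adjustment over all bins or pairs and a threshold of 0.05. Coverage and pairs had a pseudocount of 0.5 contact, insulation and direction none. A bin with no signal on a side in any library therefore had no direction score. The scripts were tested on simulated data.

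Bins needed a mean of 50 contacts and pairs one of 5, at 40 kb to 1 Mb. In the setting of at least 1 expected contact, 0.5 contact was added to the expected number as well as to the observed. Text names all 5 members, the 3 strongest partners of each at 60 kb or more, insulation minima with a prominence of at least 0.2, and the 3 bins most like NFIX. The members and lists were chosen with earlier results of these data known. Replicate numbers recur at each time. For coverage, replicate deviations correlated between times with r of 0.11 to 0.25 in all 6 pairs of times. For pairs, insulation and direction r lay between -0.0032 and 0.014. Replicate 1 of the second run also held more contacts than replicate 2 at every time, and whether the numbers pair the libraries was not tested. The main fit has no replicate block, which is among the alternatives. Other erythroid regulators were not analysed here, as no hg19 annotation was used. The alternatives are given after the report.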

Additional observations from a re-analysis of the deposited data

How the results depend on the processing

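The median 12 h minus 0.25 h gain of the 8 member bins, 0.93, was 0.82 to 1.01 on leaving out each library, 1.11 with contacts inside the chromosome only, 0.54 with contacts between chromosomes only (0.16 for KLF1 and 0.18 for PRDX2), and 1.05 with self contacts included. Over bins of 100 kb, a different set, the median was 0.73 for 2 bins of the first run and 0.75 for 3 bins of the second. The first run had no value for the 100 kb that hold CALR. The cause of these differences was not tested. With the replicate block the median of the 8 member bins stayed 0.93. The count of pairs away from their expectation, 886005, was 856653 with the replicate block and 622017 to 881287 without each library. It was 1694046 with recovered contacts, unbalanced, 570297 thinned to the smallest library, 520065 with at least 10 contacts, 1535775 (a filter chosen after seeing the data) with at least 1 expected contact, and 89117 in the first run at 50 kb, where fewer pairs were tested. These counts join both directions. The main design had 564841 above and 321164 below, while at least 1 expected contact had 460413 above and 1075362 below. The bins called for direction, 101414, were 93259 to 100520 without each library. With the replicate block, coverage, pair contacts and insulation between 3 h and 1 h had 0 calls by limma, as in the main design (unadjusted p under 0.05: 12353, 117439 and 6400), and it lost 1 call among the named pairs, KLF1 with 12.86 Mb (adjusted p = 0.056). With recovered contacts, unbalanced, which by construction does not correct for thin bins, all 10 named pairs reversed: KLF1 with CALR to -2.39, PRDX2 with KLF1 to -2.14, with 12.84 Mb to -1.76 and with 12.78 Mb to -0.24, KLF1 with 12.86 Mb to -1.50, CALR with 12.94 Mb to -1.75 and with NFIX bin 3 to -1.67, and NFIX bins 1 and 4 to -1.11, 1 and 5 to -1.57 and 2 and 5 to -2.23. Preference here therefore rests on the balancing. The expectation of chromosome 19, thinning and the setting of at least 1 expected contact each lost 3 of the 10 calls (PRDX2 with KLF1 and with 12.84 Mb, KLF1 with 12.86 Mb). Under the last, their limma adjusted p was 0.090, 0.073 and 0.22. That setting also adds 0.5 contact to the expected number, and KLF1 with CALR was at 1.21 in it, against 1.73 in the main design. Whether the filter or this change of formula lost the calls was not tested. The 10 were picked for their height, so the calls kept support nothing. Leaving out a library lost the call of KLF1 with 12.86 Mb in 6 cases of 8 and of PRDX2 with 12.84 Mb in 3. The direction of KLF1 reversed to 0.044 over 100 kb. That of NFIX bin 4 reversed to 0.0060 over 100 kb and lay between -0.27 and 0.040 without each library (0.040 without 3 h replicate 2). Neither was called there. NFIX bin 1 had no score over 100 kb, so that window does not cover it, and over 400 kb it was at 1.40 (limma adjusted p = 0.00069). KLF1 was called without 1 h replicate 1 (-0.36, adjusted p = 0.019) and PRDX2 without 0.25 h replicate 1 (-0.48, adjusted p = 0.0021). Depth limits the members most at 0.25 h, where KLF1 and CALR shared 2 contacts in all.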
